A study of Mus musculus with 53 samples.

Results

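Heat shock proteins and chaperonins are the cell's folding machinery, and their genes were read here in single mouse T1 pre-HSCs, type 1 precursors of haematopoietic stem cells (HSCs). The genes were taken by name: symbols that start with Hspa, Hspb, Hspd, Hspe or Hsph, with Dnaja, Dnajb or Dnajc, with Cct and a number from 2 to 8, or with Pfdn, together with Tcp1 and Vbp1. The rule found 72 of the 14833 genes in the table of the T1 pre-HSCs, after 1 pseudogene name was left out. It uses names and no measured value. It does not reach the HSP90 genes, which are given below as partners. Across 21 cells the constitutive chaperones were found in most cells, often with medians above 100 RPKM (reads per kilobase of transcript, scaled to the mapped reads of the cell), while 6 of the 7 listed heat-inducible genes were found in at most 6 cells. Of the 40 genes of the family found in enough cells to be compared, 32 had a lower mean log2(RPKM + 1) in KO than in wildtype cells. The same held for 2485 of all 3867 compared genes. For the family, the direction of this difference turned with the scaling and with the choice of cells, as given beside it.

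As background, a nascent protein meets chaperones in a sequence. HSP70 proteins such as Hspa8 bind unfolded stretches in cycles of ATP hydrolysis, J proteins (the Dnaj genes) bring clients to them and start the hydrolysis, and nucleotide exchange factors such as the HSP110 proteins Hspa4 and Hsph1 release them. Prefoldin hands nascent actin and tubulin to TRiC, the cytosolic chaperonin, which encloses them in a ring built of Cct subunits. Mitochondria and the endoplasmic reticulum (ER) hold their own HSP70 and J proteins. Some members are made in every growing cell. Others are made mainly after heat or other protein damage, when the factor HSF1 binds heat shock elements in their promoters, or, for the ER, in the unfolded protein response.

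The series holds 53 samples, of which 22 are the T1 pre-HSC libraries used here. They were made by template switching from single cells of E11 embryos, sorted from the aorta-gonad-mesonephros (AGM), a site at which HSCs first form. Cells 1 to 12 have the genotype mH19 delta_DMR/+ and are called KO in their titles, and cells 13 to 22 have the genotype mH19 flDMR/+ and are called wildtype, so the wildtype cells also carry a modified allele, flDMR, of the differentially methylated region (DMR) of H19. No Cre line, embryo, litter or sorting day is given in the labels used here, and the sorted cells were kept on ice until lysis. Each genotype is therefore 1 sample, no test between genotypes was made, and every spread below is a spread over cells. The 26 adult HSC libraries and 5 methylation libraries were not analysed here.

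Before any result, wildtype cell 19 has to be set aside. Its column was out of step with the gene names in 24 of 29 stretches of 500 genes, against 0 stretches in each other cell, and it is left out of the values below, which leaves 12 KO and 9 wildtype cells. H19, the RNA next to the deleted region, had a median of 28.1 RPKM in KO cells (0 to 186) and 477 RPKM in wildtype cells (231 to 1261). The number of genes at 1 RPKM or more ran from 1517 to 8408 in KO cells (median 3172) and from 2067 to 5716 in wildtype cells (median 4176). All 11 markers listed for T1 pre-HSCs were found in some cell of each genotype. Erythroid markers summed to at most 148 RPKM in a KO cell and 239 RPKM in a wildtype cell. Hbb-bt and Hbb-bs were found in no KO cell, and Hbb-y, Hbb-bh1, Hba-a1, Hba-a2 and Klf1 in no wildtype cell. In KO and wildtype cells, myeloid markers summed to at most 838 and 1951 RPKM, and mesenchymal markers to at most 685 and 243 RPKM. Their part in the results was not tested. Read depth is unknown, and an exact 0 can be a failed estimate, so such a gene is called listed at 0.

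A gene was called detected in a cell at 1 RPKM or more. Of the 72 genes, 35 were detected in at least 50% of the 21 cells, beside 18.7% of all genes in the table. Hspa8 alone was detected in all 21 cells, and Hspa2, Hspa12b, Dnajb7 and Dnajc5b in none. In all, 20 genes, these 4 included, were detected in at most 3 cells. The mean over cells of the share of these genes detected was 42.2% in KO cells and 49.4% in wildtype cells, while the share of all genes was 26.8% and 27.6%. All 72 genes together made up a median of 0.733% of the summed RPKM of a KO cell (0.368% to 1.10%) and 0.712% of a wildtype cell (0.482% to 1.10%), and the ranges overlapped.

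**Figure D1:**
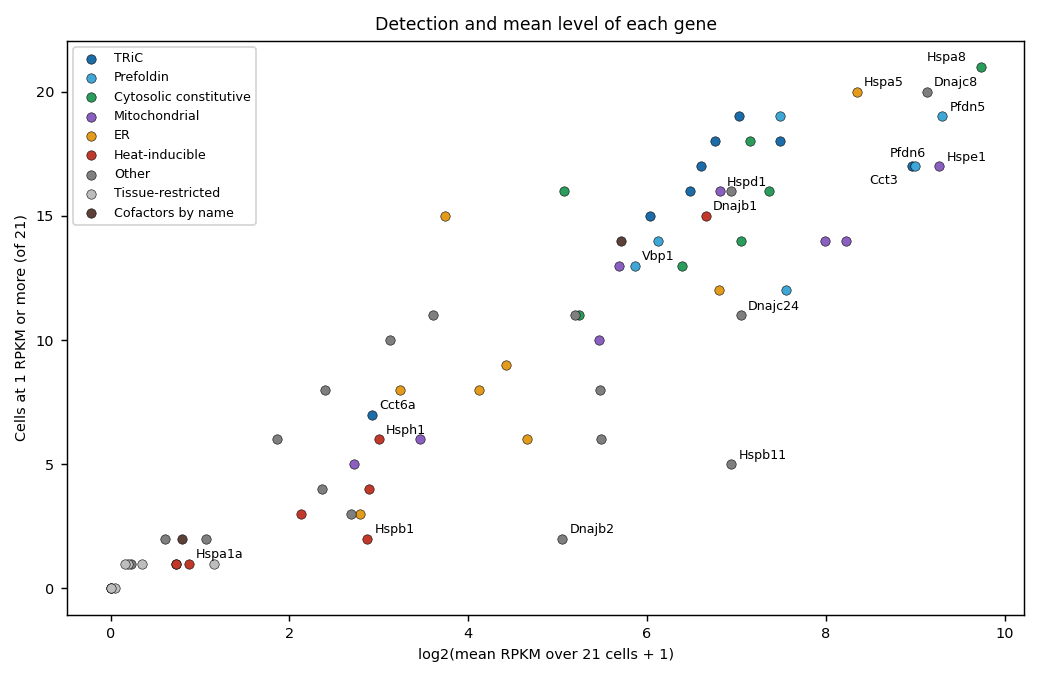
Each point is 1 gene, with log2(mean RPKM over 21 cells + 1) on the x axis, the number of cells at 1 RPKM or more on the y axis and the list of the gene as colour. Hspa8 sits at the top right in 21 cells, most heat-inducible genes lie low with Dnajb1 in 15 cells, and Hspb11 and Dnajb2 combine a high mean with 5 and 2 cells.

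The number of detected chaperone genes followed the number of all detected genes in a cell. KO cell 5, with 8408 genes, showed 51 of the 72, and KO cell 12, with 1796 genes, showed 14. Among wildtype cells the ends were cell 18, with 5716 genes and 45 of the 72, and cell 13, with 2067 genes and 16. Pearson's r between these counts was 0.978 over 12 KO cells and 0.932 over 9 wildtype cells, given as a description, since both counts come from the same library and share its depth. The share of summed RPKM had no such relation (r = 0.043 and 0.246). The ratio of the percent of chaperone genes detected to the percent of all genes detected was above 1 in each of the 21 cells, from 1.25 to 2.04 in KO cells (median 1.69) and from 1.59 to 2.02 in wildtype cells (median 1.84).

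**Figure D2:**
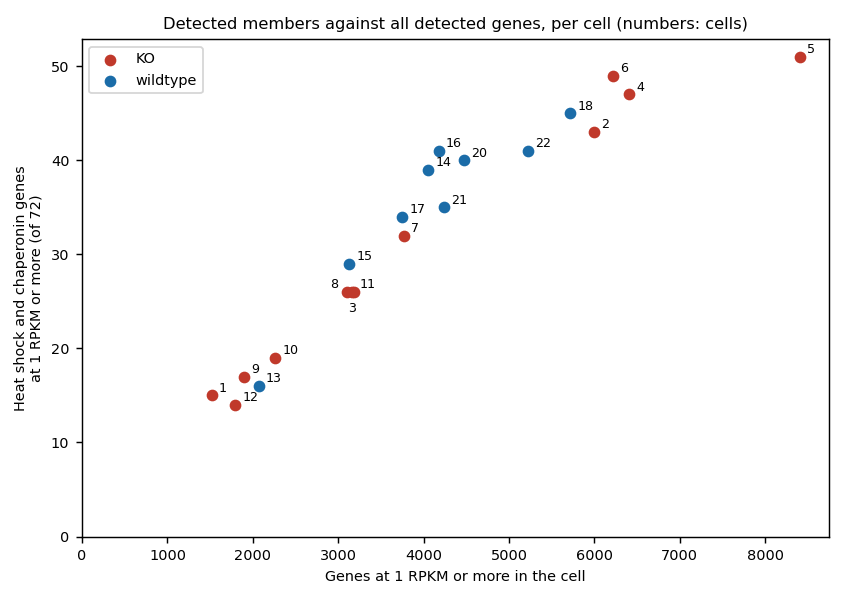
Each point is 1 cell, with all genes at 1 RPKM or more on the x axis and heat shock and chaperonin genes at 1 RPKM or more, of 72, on the y axis. Both genotypes lie along the same band, and the 3 KO cells with the fewest genes (1, 9 and 12) show 14 to 17 of the 72 while the KO cells reach further right than any wildtype cell.

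Among the cytosolic constitutive genes, Hspa8, the constitutive HSP70 that binds nascent and unfolded chains, had the highest mean level of all 72 genes (849 RPKM over 21 cells). In KO cells it ran from 30.2 RPKM in cell 1 to 1414 RPKM in cell 6, with a median of 897 RPKM. In wildtype cells it ran from 388 to 1266 RPKM, with a median of 1168 RPKM. The groups overlapped, and apart from KO cell 1 the lowest value was 374 RPKM. The 95% interval of its share of cells, 83.9% to 100%, covers counting error only, as do the other intervals below. The J proteins Dnajc7 and Dnaja1 followed with means of 164 and 141 RPKM, in 16 and 18 cells. All 7 genes of this list were detected in at least 50% of the cells.

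Dnajc2 and Dnaja2 were the genes of this list whose level differed most between genotypes, in opposite directions. Dnajc2, a J protein of the ribosome-associated complex that works with Hspa14 on nascent chains, was listed at 0 in KO cell 9, had a median of 1.26 RPKM and reached 211 RPKM in KO cell 11. In wildtype cells it was listed at 0 in cell 14, had a median of 118 RPKM and reached 1063 RPKM in cell 13. The other 8 wildtype cells were at 78.4 RPKM or more, but 4 KO cells were as high as 71.4 to 211 RPKM and the groups overlapped. The difference of mean log2(RPKM + 1), KO minus wildtype, was -3.87. Hspa14, its partner, had a difference of -1.82 on the same scale. Dnaja2, a J protein of cytosolic HSP70, went the other way. It was detected in 7 of 12 KO cells (median 31.1 RPKM, highest 195 RPKM) and in 4 of 9 wildtype cells (median 0.308 RPKM, highest 59.9 RPKM), a difference of 2.18. It was below 0.01 RPKM in 5 KO cells and listed at 0 in 3 wildtype cells.

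TRiC, the chaperonin ring that folds actin and tubulin, was detected broadly but not evenly. Of its 8 subunit genes, 7 were detected in 15 to 19 of the 21 cells. Cct6a was the exception, in 7 cells, with a median of 0 RPKM in KO cells (highest 7.62 RPKM) and 1.71 RPKM in wildtype cells (highest 59.7 RPKM). The highest mean level was that of Cct3 (498 RPKM), followed by Cct5 (179 RPKM) and Cct7 (130 RPKM). All 8 subunits were detected together in 2 of 12 KO cells and 5 of 9 wildtype cells, with a median of 6 and 8 subunits per cell. The KO cells with 3 subunits or fewer (9, 10 and 12) had 1796 to 2260 detected genes, and the wildtype cell with 3 subunits (13) had 2067. The ring's share of the summed RPKM differed little, with a median of 0.123% in KO cells (0.0220% to 0.188%) and 0.132% in wildtype cells (0.0402% to 0.167%).

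Cct5 set the genotypes apart most among the subunits. In wildtype cells it ran from 144 to 384 RPKM with a median of 230 RPKM, and its SD over the 9 cells was 0.42 on the log2(RPKM + 1) scale. In KO cells it was listed at 0 in cells 1, 10 and 12, stood at 2.02 and 3.91 RPKM in cells 9 and 3, and lay between 126 and 377 RPKM in the other 7, with a median of 143 RPKM and an SD of 3.65. The 5 low KO cells thus lie below all wildtype cells and the other 7 in or near their range. The difference was -3.07, and -0.14 with KO cells limited to the 4 that had at least 4176 genes (2, 4, 5 and 6). Cct3 showed the same 0 or near-0 values in a different set of KO cells (3, 8, 9 and 10), while KO cells 1 and 12 had 973 and 1649 RPKM of it. In wildtype cells Cct3 was also low in cells 13 and 15 (1.41 and 8.65 RPKM), beside a median of 368 RPKM. Of the 8 subunits, 6 were lower in KO cells by 1 or more (Cct2, Cct5, Cct6a, Cct7, Cct8 and Tcp1), and none was higher by 1, beside 28.0% and 11.4% of all 3867 compared genes. This holds for the mean log2(RPKM + 1), in which cells at 0 weigh heavily. Mean RPKM in KO and wildtype cells was 130 and 129 for Cct7, 93.5 and 80.7 for Cct8, 602 and 360 for Cct3, and 110 and 105 for Cct4. For Cct2, Cct5, Cct6a and Tcp1 mean RPKM was lower in KO cells. With each cell shifted to an equal median of the compared genes, 1 subunit was lower by 1, beside 6.21% of all compared genes, and 5 of the 8 lay below 0. The differences of Cct3 and Cct4 were -0.85 and -0.25. That of Cct3 came to -1.61 without wildtype cell 13 and to about -0.26 without KO cell 9 or 10, and to 2.12 with KO cells limited to the 4 that had at least 4176 genes. That of Cct4 came to 0.26 without KO cell 9 or 12, to 0.013 without wildtype cell 17 and to -0.99 without wildtype cell 13. Leaving out 1 cell moved 5 of the 6 lower subunits by over 1.5 times: Cct2 to -2.21 without wildtype cell 13, Cct6a to -0.77 without wildtype cell 16 or 22, Cct7 to -0.82 without KO cell 9 or 12, and Tcp1 to -0.98 without wildtype cell 21. Cct8 moved to -1.77 without wildtype cell 13, to -0.63 without KO cell 3, 9 or 12, and to -0.70 without KO cell 11.

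**Figure D3:**
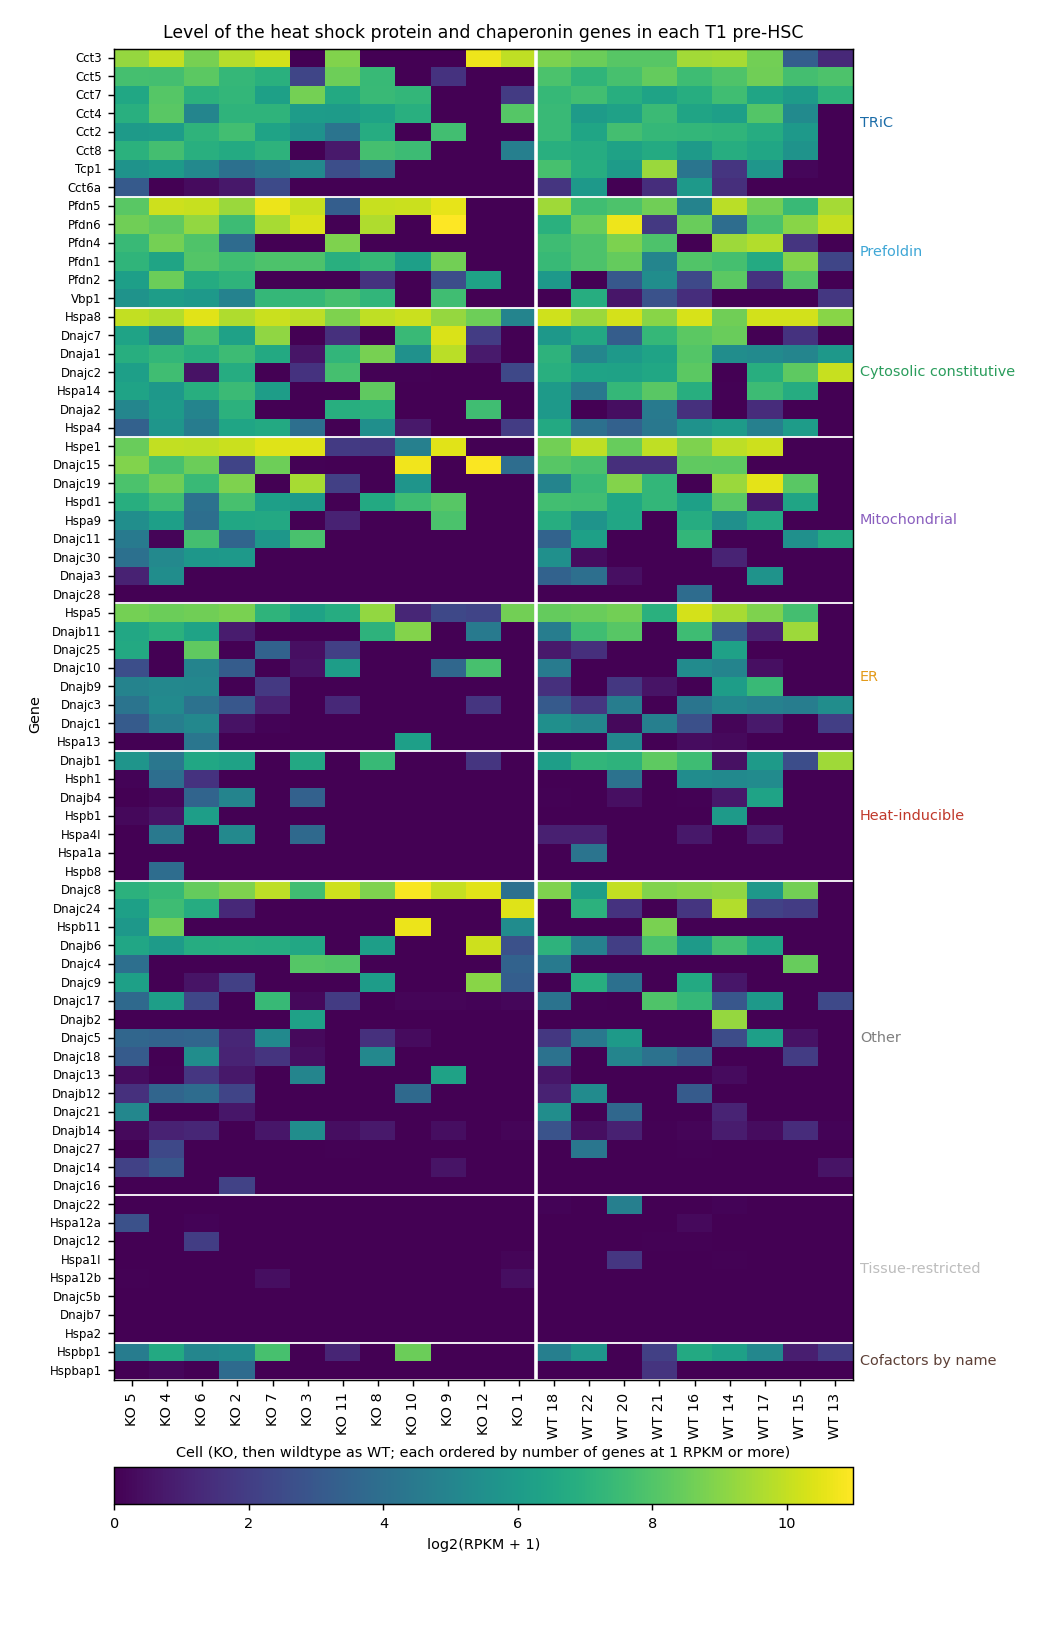
Rows are the 72 genes grouped by list, columns are the 12 KO and 9 wildtype cells, each set ordered by its number of detected genes, and colour is log2(RPKM + 1). The TRiC, prefoldin and constitutive lists are filled in most cells and thin out toward the cells with few genes at the right of each set, while the heat-inducible list below Dnajb1 and the tissue-restricted list are mostly at 0.

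Prefoldin, the jaw-shaped complex that passes nascent actin and tubulin to TRiC, had all of its 6 genes in at least 12 of the 21 cells. Pfdn5 was the highest by mean (630 RPKM), with a median of 1073 RPKM in KO cells (0 to 1602) and 384 RPKM in wildtype cells (29.4 to 911). Its median was higher in KO cells, yet the difference of its mean log2 level was -0.51, with KO cells 1 and 12 listed at 0 and KO cell 11 at 8.72 RPKM. Its sign was not stable: the difference came to 0.19 without KO cell 1 or 12, to 0.65 with equal medians and to 2.08 in cells with Xist below 1 RPKM. All 6 subunits were detected together in 4 of 12 KO cells and 1 of 9 wildtype cells, which is the reverse order to TRiC, with medians of 4.5 and 5 subunits. Those KO cells (2, 4, 5 and 6) had the most detected genes of their group, 5994 to 8408, and the wildtype cell (21) had 4241. In wildtype cells Vbp1 was detected in 4 of 9, and each other subunit in 7 to 9. Prefoldin made up a median of 0.166% of the summed RPKM in KO cells and 0.151% in wildtype cells.

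Its subunits Vbp1 and Pfdn4 differed most between genotypes, in opposite directions. Vbp1 was listed at 0 in KO cells 1, 10 and 12 and lay between 28.6 and 211 RPKM in the other 9, with a median of 63.1 RPKM. In wildtype cells it was listed at 0 in 4, reached 1 RPKM in 4, and exceeded 10 RPKM in 1, cell 22 with 115 RPKM, with a median of 0.583 RPKM. The difference was 3.48, the highest of the compared genes of the family, although the groups overlapped through the 3 KO cells at 0 and wildtype cell 22. Vbp1 is the only one of the 72 genes on the X chromosome, and Xist, the RNA of the inactive X, was at 1 RPKM or more in 7 KO cells and 2 wildtype cells. In cells with Xist below 1 RPKM, Vbp1 was detected in 5 of 5 KO cells and 3 of 7 wildtype cells, and in the others in 4 of 7 and 1 of 2; the part of the X chromosome's state in the difference was not tested. Pfdn4 was listed at 0 in 7 of 12 KO cells and reached 466.3 RPKM in cell 11, while wildtype cells had a median of 241 RPKM and reached 844 RPKM, with 2 cells at 0. Its difference was -2.82, and 1.09 with the 4 KO cells of at least 4176 genes. Pfdn6 had a difference of -1.30, which came to -0.74 without KO cell 1, 10, 11 or 12 and to -2.01 without wildtype cell 21. Pfdn1, Pfdn2 and Pfdn5 were within 1 of equal (-0.75, -0.58 and -0.51). Without wildtype cell 13 the differences of Pfdn1 and Pfdn2 came to -1.33 and -1.06, and with the 4 KO cells of at least 4176 genes to 0.38 and 3.31.

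Heat shock elements are the promoter letters to which HSF1 binds. Stretches that hold them are shown for 4 genes of the heat-inducible list and for 2 genes of other lists (Hspe1, mitochondrial, and Cct5, TRiC). The RefSeq promoter windows (GRCm38.p6, 250 bases before to 50 after a start) covered 59 of the 72 genes. Capitals mark the heat shock element core, GAANNTTC or TTCNNGAA (each its own reverse complement, so both strands are read at once), with neighbouring cores joined where they overlap. Stretches of 30 bases are centred on the capitals, and that of Hspa1a is the 150 bases ahead of its start. Hspa1a, minus strand, is chr17:34972157-34972306, Hspb1, plus strand, is chr5:135887801-135887830, and Hsph1, minus strand, is chr5:149636351-149636380. Dnajb4, minus strand, is chr3:152193841-152193870, and Hspe1, plus strand, is chr1:55088053-55088082. Cct5, minus strand, is chr15:31601862-31601891.
Hspa1a: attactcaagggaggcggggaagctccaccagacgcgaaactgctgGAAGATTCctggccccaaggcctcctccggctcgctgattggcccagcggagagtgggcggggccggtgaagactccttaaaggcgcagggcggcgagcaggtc
Hspb1: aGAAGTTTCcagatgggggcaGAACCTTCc
Hsph1: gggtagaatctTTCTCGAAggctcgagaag
Dnajb4: ttcgttcgctgTTCTAGAAagtacagagac
Hspe1: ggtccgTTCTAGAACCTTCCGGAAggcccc
Cct5: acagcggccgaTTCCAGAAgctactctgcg

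The core stood in 15.1% of 32851 windows of all genes, in 21.3% of the 75 windows of this family and in 6 of the 10 windows of the heat-inducible list (60%). With the 250 bases before the start alone the last share was 50%. By gene, 5 of the 7 heat-inducible genes had it (Hspa1a, Hspb1, Hspb8, Hsph1 and Dnajb4), as did Cct2, Cct5 and Cct6a among the 7 TRiC genes with a window, and no prefoldin gene. The share by gene was 17.0% of all genes with a window and 23.7% of the 59. Dnaja1, Dnajc10, Dnajc27, Dnajb6, Hspd1 and Hspe1 also had it. The 13 genes without a window include Hspa8, Hspa9, Cct4 and Pfdn1, so nothing can be said of their letters. Dnajb1, the heat-inducible gene with the highest level, had no window with these letters. A run of 3 units in alternating order (each GAA or TTC with 2 bases between them) stood in 0.603% of all windows, and among the 59 genes in those of Hsph1, Hspd1, Hspe1 and Dnajb6. A match is a description of letters and no site, and no match says only that they are not in the window.

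The 7 genes of the heat-inducible list were detected in 20.2% of the gene-by-cell pairs of KO cells and 23.8% of those of wildtype cells. The share of all genes of the table was 26.8% and 27.6%, not far above, and that of TRiC 66.7% and 87.5%. They summed to a median of 0.00274% of a KO cell's RPKM (0 to 0.0173%) and 0.0166% of a wildtype cell's (0.000562% to 0.0698%). Hspa1a, the classical heat-induced HSP70, was listed at 0 in 20 of the 21 cells and at 17.5 RPKM in wildtype cell 22. Its near-identical neighbour Hspa1b is not among the 72 genes, and how reads of such copies were assigned is not given in the sources used here, so its value is uncertain. Hspb1, the small heat shock protein HSP25 of mouse cells, was detected in KO cell 6 (70.6 RPKM) and wildtype cell 14 (61.4 RPKM). Hspb8, another small heat shock protein, was detected in KO cell 4 alone (14.0 RPKM).

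Hsph1, the inducible HSP110, was detected in KO cells 4 and 6 (14.8 and 2.02 RPKM) and in wildtype cells 14, 16, 17 and 20 (35.7, 39.2, 38.2 and 16.7 RPKM). The wildtype values lie above both KO values, and the other 5 wildtype and 10 KO cells were below 1 RPKM. Dnajb4, a J protein induced by heat, was detected in KO cells 2, 3 and 6 (30.3, 9.69 and 10.6 RPKM) and in wildtype cell 17 (82.5 RPKM). Hspa4l, an HSP110 relative, was detected in KO cells 2, 3 and 4 (34.7, 12.4 and 20.7 RPKM) and in no wildtype cell, 4 of which lay between 0.655 and 0.930 RPKM. Among KO cells, the 6 heat-inducible genes other than Dnajb1 were detected in cells 2, 3, 4 and 6, which had 3181 to 6411 detected genes, and in none of the other 8, cell 5 with its 8408 genes included. Among wildtype cells they were detected in cells 14, 16, 17, 20 and 22, with 3752 to 5222 genes.

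Dnajb1 was the only heat-inducible gene detected in at least 50% of the cells (15 of 21, 71.4%, 95% interval 47.8% to 88.7%). It encodes the main inducible J protein of cytosolic HSP70. In KO cells it was listed at 0 in 5 cells (1, 7, 9, 10 and 11), had a median of 10.9 RPKM and reached 170 RPKM in cell 8. In wildtype cells it stood at 0.410 RPKM in cell 14 and 5.10 RPKM in cell 15, had a median of 137 RPKM and reached 671 RPKM in cell 13. The groups overlapped, and 4 of the 9 wildtype cells, at 62.0 to 149 RPKM, lay below the highest KO cell and above the KO median. The difference was -2.87, and -0.35 with the 4 KO cells of at least 4176 genes. No other heat-inducible gene was detected in wildtype cell 13, where Dnajb1 made up the list's 0.0698% of RPKM.

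**Figure D4:**
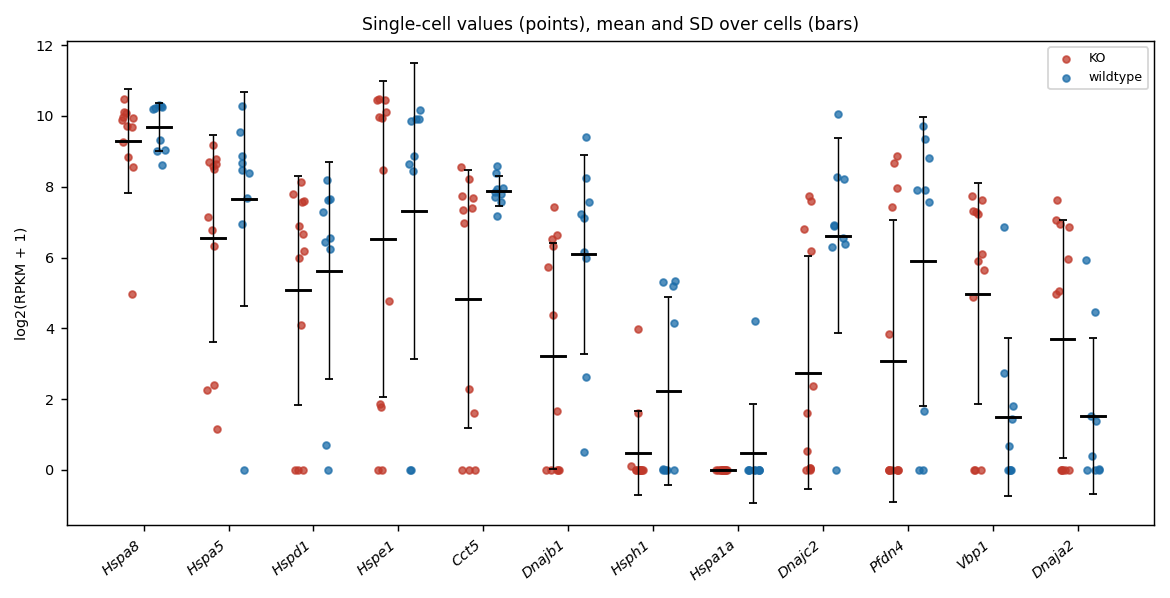
Points are cells, KO in red and wildtype in blue, for 12 genes on the x axis, with log2(RPKM + 1) on the y axis; the thick bar is the mean and the whiskers the SD over cells. Hspa8 is high in nearly every cell, Cct5 is tight in wildtype and split in KO cells, Hspa1a is at 0 in all but 1 cell, and Vbp1 and Dnaja2 have higher means in KO cells than in wildtype cells.

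Among the mitochondrial genes, the chaperonin pair was detected in the most cells. Hspe1, the lid of the mitochondrial chaperonin, was detected in 17 cells and had the highest mean of the list (615 RPKM). Hspd1, the barrel of the same machine (HSP60), was detected in 16 cells with a mean of 112 RPKM, below those of Dnajc15 and Dnajc19. Hspe1 in KO cells ran from 0 (cells 1 and 12) to 1428 RPKM with a median of 664 RPKM, and in wildtype cells from 0 (cells 13 and 15) to 1146 RPKM with a median of 467 RPKM. Hspd1 ran from 0 (KO cells 1, 11 and 12) to 280 RPKM with a median of 85.8 RPKM in KO cells, and from 0 (cell 13) to 289 RPKM with a median of 92.3 RPKM in wildtype cells. The groups overlapped for both genes. Both were detected together in 15 of the 21 cells, Hspd1 alone in 1, Hspe1 alone in 2 and neither in 3. The 2 genes lie head to head on chromosome 1, where their annotated spans overlap by 96 bases, and a single stretch of 18 bases with 4 units (the capitals of Hspe1 above, at chr1:55088059-55088076) lies in the windows of both. The strand setting of the counting is not given in the sources used here, so reads in the overlap may count for either gene.

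The other mitochondrial genes were less regular. Dnajc15 and Dnajc19, J proteins of the protein import motor, had means of 298 and 253 RPKM with detection in 14 cells each, 10 of them shared. Dnajc15 was listed at 0 in KO cells 8, 9 and 11, had a median of 115 RPKM in KO cells and reached 1936 RPKM in KO cell 12, while wildtype cells had a median of 1.82 RPKM and reached 314 RPKM. Its difference of 1.19 came to 0.66 without KO cell 12, to 0.68 without KO cell 10, and to 0.70 without wildtype cell 13, 15 or 17. Dnajc19 had a median of 27.9 RPKM in KO cells (0 to 747) and 174 RPKM in wildtype cells (0 to 1462), a difference of -2.11, which turned to 1.90 with the 4 KO cells of at least 4176 genes. For both genes the ranges of the genotypes overlapped over most of their length.

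In the ER, Hspa5 (BiP), the HSP70 of that compartment and the usual readout of the unfolded protein response, was detected in 20 of 21 cells. In KO cells it ran from 1.24 RPKM to 580 RPKM with a median of 252 RPKM, and cells 9, 10 and 12 were at 4.27, 1.24 and 3.75 RPKM. In wildtype cells it was listed at 0 in cell 13, had a median of 352 RPKM and reached 1249 RPKM in cell 16. Those 4 low cells had 1796 to 2260 detected genes, but KO cell 1, with 1517 genes, stood at 397 RPKM. The difference of -1.11 came to -2.07 without wildtype cell 13 and to between -0.73 and -0.62 without KO cell 9, 10 or 12, and it was 0.048 with equal medians and 1.00 with the 4 KO cells of at least 4176 genes. Dnajb11, an ER J protein of BiP, was detected in 12 cells, and its difference of -1.15 came to -0.55 without wildtype cell 15 and to -0.71 without wildtype cell 20.

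Dnajc3, another ER J protein of BiP, had a median of 1.23 RPKM in KO cells (0 to 37.4) and 24.4 RPKM in wildtype cells (0 to 40.6), a difference of -2.03. It was detected in 7 of 12 and 8 of 9 cells, the groups overlapped, and the difference was 0.40 with the 4 KO cells of at least 4176 genes. Dnajc10, an ER J protein with disulphide reductase activity, had medians of 2.84 RPKM (0 to 218) and 0 RPKM (0 to 38.0) and a difference of 0.70, which came to 0.22 without KO cell 12, to 1.15 without wildtype cell 16 and to -0.37 in the shared range of detected genes described below. Hspa5 and Dnajc3 share a promoter feature that the naming rule did not use. The ER stress element, CCAAT followed after 9 bases by CCACG on either strand, stood in 39 of 32851 windows (0.119%), and of the 59 genes in those of Hspa5 and Dnajc3. It is shown in capitals, in 150 bases of Hspa5 ahead of the start (plus strand, chr2:34771940-34772089) and 30 bases of Dnajc3 (plus strand, chr14:118937822-118937851).
Hspa5: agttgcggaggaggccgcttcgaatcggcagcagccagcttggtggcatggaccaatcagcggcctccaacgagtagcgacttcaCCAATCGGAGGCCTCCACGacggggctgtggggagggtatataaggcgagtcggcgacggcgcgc
Dnajc3: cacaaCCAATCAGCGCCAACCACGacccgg

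The 17 remaining J proteins and HSPs outside the tissue-restricted list were detected in a median of 6 cells. Dnajc8 and Dnajb6 were found most widely, in 20 and 16 cells, and Dnajc5, Dnajc17 and Dnajc24 in 11 each. Dnajc8, a J protein bound to the splicing machinery, was detected in 20 cells with a mean of 557 RPKM. It ran from 15.5 to 1848 RPKM in KO cells (median 463 RPKM) and from 0 to 1010 RPKM in wildtype cells (median 468 RPKM), so the medians were nearly equal. Its difference in mean log2 level was 1.24 and came to 0.31 without wildtype cell 13, the cell listed at 0. Dnajb6, a J protein that keeps aggregation-prone chains soluble, was within 1 of equal (0.23, and -0.36 without wildtype cell 15), detected in 9 of 12 KO cells (median 80.1 RPKM, highest 1140 RPKM) and 7 of 9 wildtype cells (median 62.4 RPKM, highest 236 RPKM). Hspb11 had a high mean from few cells, with 1632 RPKM in KO cell 10 and 5 cells detected. None of the 8 genes placed in the tissue-restricted list was detected in more than 1 cell.

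Genotypes were compared across the family for genes detected in 50% or more of KO cells or of wildtype cells. This held for 40 of the 72 genes and 3867 of all genes, and the 32 others were detected too rarely to be compared. Of the 40, 30 passed in both genotypes, 3 in KO cells alone (7.5%, beside 18.0% of all compared genes) and 7 in wildtype cells alone (17.5%, beside 19.9%). Vbp1, Dnaja2 and Dnajc10 passed in KO cells alone. Cct6a, Pfdn4, Dnajc1, Dnajc11, Dnajc17, Dnajc18 and Dnajc24 passed in wildtype cells alone. Passing in 1 genotype alone already reflects a difference in detection, so the counts below are a description. Of the 40, 19 were lower in KO cells by 1 or more on the log2(RPKM + 1) scale (47.5%), beside 28.0% of all compared genes. Another 4 were higher by 1 or more (10%), beside 11.4% of all compared genes, and 17 lay within 1. The median difference was -0.82 for the 40 genes and -0.36 for all compared genes. Below 0 lay 32 of the 40, beside 2485 of all 3867 compared genes. For no gene of the 40 did the cells of the genotypes separate without overlap, beside 0.0517% of all compared genes. These are rules of size and not tests. Without the filter, the median of all 72 was -0.45, with 44 below 0, 26 above and 2 at exactly 0, beside a median of 0 for all genes.

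By list, the medians of the compared genes were -1.31 for TRiC (6 of 8 lower by 1), -1.15 for the ER (4 of 5), -0.79 for the mitochondrial genes (2 of 6), -0.66 for prefoldin (2 of 6) and -0.40 for the cytosolic constitutive genes (3 of 7, namely Dnajc2, Hspa14 and Hspa4). Those higher by 1 were Vbp1, Dnaja2, Dnajc8 and Dnajc15, from 4 different lists. Leaving out 1 cell moved 11 of these 23 differences by over 1.5 times, those given above and that of Dnajc17 (-1.55, and -0.99 without wildtype cell 21). With each cell shifted to an equal median, and over all genes of a list, the median of TRiC was -0.15, while those of the ER, mitochondrial, prefoldin and cytosolic constitutive lists were 0.34, 0.38, 0.49 and 0.76. The median of all compared genes was then 0.79, above that of each of these lists. As deposited, detection shares differed in the same direction as the mean log2 levels: TRiC genes were found in 66.7% of pairs in KO cells and 87.5% in wildtype cells, prefoldin in 68.1% and 83.3%, and the cytosolic constitutive list in 67.9% and 82.5%.

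**Figure D5:**
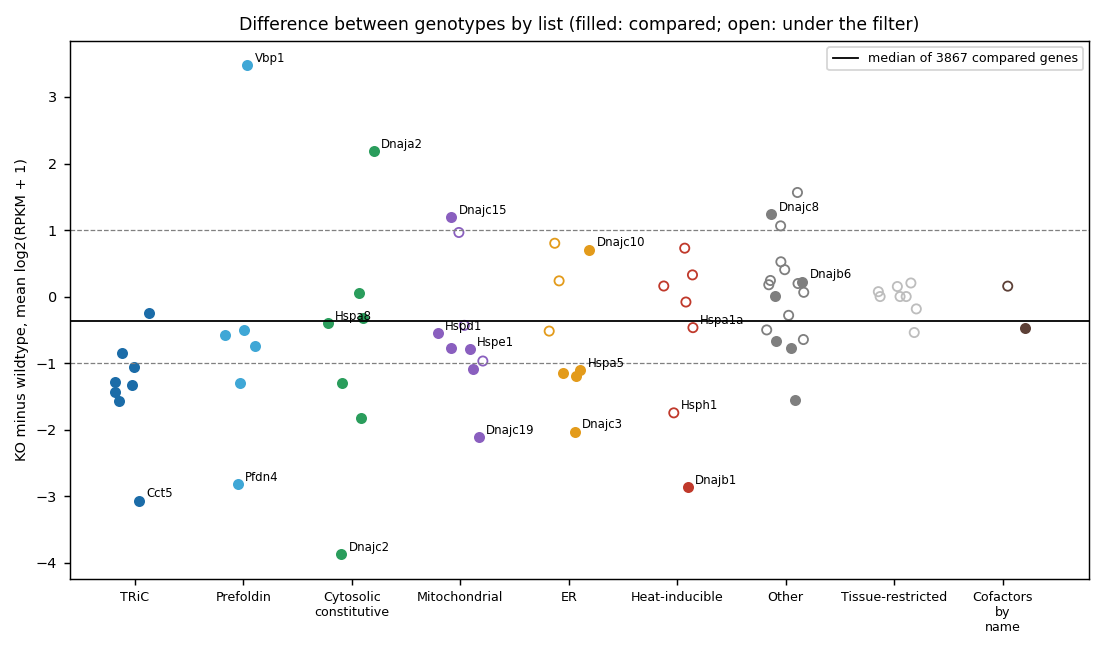
Each point is a gene, placed by its list on the x axis and by its difference of mean log2(RPKM + 1), KO minus wildtype, on the y axis; filled points passed the filter, open points did not, dashed lines mark -1 and 1, and the solid line is the median of the 3867 compared genes (-0.36). All 8 TRiC genes lie below 0 (5 with equal medians), Dnajc2 is the lowest and Vbp1 the highest. With the cells set to an equal median the median of the compared family genes was 0.34 instead of -0.82, and that of all compared genes 0.79 instead of -0.36.

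The number of detected genes moved with these differences, and its part in them was not tested. KO cells 1, 9 and 12 had fewer than 2000 genes and no wildtype cell did. Without them, 6 of 40 genes of the family were lower by 1 (15%, beside 14.1% of all genes) and 4 were higher (10%, beside 25.9%). The median was then -0.25, beside 0.22 for all compared genes. With KO cells limited to the 4 that had at least 4176 genes, the wildtype median (2, 4, 5 and 6), the direction turned, to a median of 1.02, beside 1.28 for all compared genes. There, 1 of 52 genes was lower by 1 (1.92%, beside 2.11% of all genes) and 26 were higher (50%, beside 59.9%). The direction also turned when each cell was shifted to an equal median of the compared genes, which moved the median of all compared genes from -0.36 to 0.79 and that of the family to 0.34. This shift adds the same amount to the difference of every gene, so the place of the family relative to all compared genes did not change. With the 5 KO cells inside the range of detected genes of the wildtype cells (3, 7, 8, 10 and 11), an alternative chosen after the data were seen, 22 of 38 genes were lower by 1 (57.9%, beside 41.4%) and 2 higher (5.26%, beside 14.5%). The median of the family minus that of all compared genes was -0.46 as reported and between -0.75 and -0.26 over the settings tried. Leaving out wildtype cell 13, which has the fewest genes of its group, moved the median to -1.28 and the number higher by 1 from 4 to 2 (4.76%, beside 8.23% of all compared genes). Of the 33 genes of the family named with values, 24 changed sign in at least 1 of the settings other than leaving out single cells, and 18 did so with those 4 KO cells. Dnajc2, Vbp1 and Dnaja2 stayed past 1 in each setting, while Cct5 and Dnajb1 kept their sign but came to -0.14 and -0.35 with those 4 KO cells.

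The partners outside the name rule give the setting in which these genes act. Of 32 genes listed as HSP90s, heat shock factors and cochaperones, 31 were in the table and 23 were compared, with 8 lower (34.8%) and 2 higher (8.70%) by 1 and a median of -0.49. These lie near the 28.0%, 11.4% and -0.36 of all compared genes. Hsp90ab1, the constitutive cytosolic HSP90, was detected in 21 cells with a median of 1161 RPKM in KO cells and 885 RPKM in wildtype cells, and Hsp90aa1, its more inducible relative, in 20 cells with 980 and 849 RPKM. Hsp90b1, the ER form, differed by -0.03 and was found with Hspa5 in 19 of 21 cells. Hsf1, the factor of the heat shock response, reached 1 RPKM in 4 KO cells and 6 wildtype cells (difference -1.73), and Bag3, a heat-induced cochaperone, in 1 cell. Immediate early genes, which are induced within minutes by many stimuli, ranged widely: the 15 listed were found in a median of 13 of the 21 cells, from Fosl1 in 0 to Ier2 in 21 (81.6 to 2336 RPKM). Of 12 compared immediate early genes 3 were lower (25%) and 1 higher (8.33%) by 1, with a median of -0.47, again near the values of all compared genes.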

How the data were processed

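Single-cell RNA was measured in T1 pre-HSCs. Values are RPKM as deposited by the authors, from Cufflinks 2.1.0 and build mm10 (submitters' processing notes). Aligner, annotation, strand setting and the handling of multiply mapped reads: not given in the sources used here. Because RPKM is scaled to the cell's total, a few high genes lower all others. The 72 gene names matched RefSeq. For each gene, log2(RPKM + 1) was averaged over the cells of a genotype and the wildtype mean subtracted from the KO mean. The pseudocount of 1 understates changes of low genes. Size 1 is a rule, not a test. Intervals are exact Clopper-Pearson (95%). Python 3.11.15, numpy 2.4.6, pandas 2.3.3 and scipy 1.17.1 were used, and scripts were tested on simulated data. None of the 72 genes lay in the first 24 genes of the table, placed ahead of its alphabetical order, and 0 of 6953 pairs of their values of at least 5 digits were identical between cells.

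The genes, lists and alternatives were chosen with earlier results of these data known. Named with values per cell are the heat-inducible genes, Hspa8, Hspa5, Hspd1, Hspe1 and the 6 largest differences in each direction. TRiC and prefoldin are described, as are the 3 highest genes of the other lists with some exceptions. Levels of Dnajc25, Dnajc24, the single tissue-restricted genes and the cofactors Hspbp1 and Hspbap1 are not described. Alternatives were pseudocounts of 0.1 and 10, no filter or one at 5 RPKM, equal totals or medians, medians over cells, other sets of cells, other detection limits and leaving out each cell. The adult HSC table was not analysed here, as none of these genes was found in it. Protein sequences were not analysed here.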

Additional observations from a re-analysis of the deposited data

Results flagged for a closer look

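In the 9 wildtype cells, 12 of 40 values tested had a highest or lowest cell far from the rest, a gap to the next cell above 0.493 of the whole range. Chance gives about 1 in 20 such groups for evenly spread values. That rate does not hold for values with many zeros, such as Hspa1a and Hspb1, which were at 0 in 8 of 9 cells, so the number is not read against it. Cell 13, with the fewest detected genes of its group, made 6 of the 12. There, the heat-inducible genes summed to 0.0698% of the RPKM, from Dnajb1 alone, and Hspa5, Dnajc8, Cct2, Cct4 and Cct8 were each at 0 on the log2(RPKM + 1) scale. Dnajc2 was at 0 on that scale in cell 14, and Pfdn5 was at 4.93 in cell 16, each the lowest of the 9. Single high cells were Hspb1 at 5.96 in cell 14, Dnajb4 at 6.38 in cell 17, and Hspa1a at 4.21 and Vbp1 at 6.86 in cell 22.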

How the results depend on the processing

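No paired analysis was possible because KO cells are numbered 1 to 12 and wildtype cells 13 to 22 and share no number. As reported, 19 genes of the family were lower and 4 higher by 1 in KO cells, with a median of -0.82. The lower count was 7 with a pseudocount of 10 (17.5%, beside 11.0% of all compared genes) and 4 with equal medians (10%, beside 6.21%). It was 6 without cells of under 2000 genes (15%, beside 14.1%) and 1 with KO cells at the wildtype median of detected genes (1.92%, beside 2.11%). The higher count was 2 (5%, beside 4.03%), 8 (20%, beside 42.2%), 4 (10%, beside 25.9%) and 26 (50%, beside 59.9%) in the same order, and 2 in the shared range of detected genes (5.26%, beside 14.5%). The median was above 0 with equal medians (0.34, beside 0.79 for all compared genes) and with KO cells at the wildtype median (1.02, beside 1.28). Leaving out each cell gave 14 to 25 lower, 2 to 5 higher and medians of -1.28 to -0.72. The difference in the share of summed RPKM ran from -0.00826 to 0.0606 percentage points. With wildtype cell 19 the counts were 22 and 4 (53.7% and 9.76%, beside 26.5% and 12.8% of all compared genes).

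Of 33 named genes, 24 changed sign in at least 1 setting other than leaving out single cells: 18 with KO cells at the wildtype median, 12 with equal medians, 9 in the shared range, 8 each with medians over cells, without cells of under 2000 genes and with Xist under 1 RPKM, 2 with a pseudocount of 10 and 1 with 0.1. Equal medians add the same amount to the difference of every gene, so each small negative difference turns by design. The 12 sign changes there are therefore 1 common shift and not separate results of these genes. Leaving out single cells turned Pfdn5, Cct4, Dnajb6, Dnajb4 and Hspb1, and no other of the 33. Genes with a difference of 1 or more changed sign as follows. Equal medians gave 0.048 for Hspa5 and 0.10 for Cct8. Medians over cells gave -0.015 for Dnajc8, 0.31 for Cct8 and 0.0079 for Pfdn6. Cct7 was at 0.32 without cells of under 2000 genes and 0.33 in the shared range, where Dnajc15 was at -0.069. KO cells at the wildtype median gave 1.00 for Hspa5, 1.09 for Pfdn4, 1.90 for Dnajc19, 0.40 for Dnajc3, 0.48 for Cct2, 0.30 for Cct7, 1.35 for Cct8, 0.55 for Tcp1 and 0.92 for Pfdn6. In cells with Xist under 1 RPKM, Dnajc15 was at -1.37, Cct2 at 0.027 and Pfdn6 at 2.07. Of genes within 1, KO cells at the wildtype median turned Hspe1 to 2.31, Cct3 to 2.12, Pfdn2 to 3.31, Pfdn5 to 1.22, Hspd1 to 0.96 and Cct4 to 0.90. Equal medians turned Hspa8 to 0.76, Hspd1 to 0.60, Hspe1 to 0.37, Cct3 to 0.31, Cct4 to 0.91, Pfdn1 to 0.41, Pfdn2 to 0.58 and Pfdn5 to 0.65, and the shared range turned Dnajc10 to -0.37 and Dnajb6 to -0.75. The causes were not tested. The sign was kept over the settings, leaving out single cells aside, by Cct6a (-2.14 to -0.12), Hsph1 (-2.67 to -0.022), Vbp1 (2.05 to 5.34), Dnaja2 (1.24 to 4.62), Dnajc2 (-5.82 to -1.34), Cct5 (-3.96 to -0.14) and Dnajb1 (-4.11 to -0.35). Hspa4l (0 to 2.01) and Hspb8 (0 to 1.48) did not turn but came to exactly 0 in at least 1 setting. The number detected in at least 50% of cells was 31 to 40 under the other detection limits. Depth is unknown, so detection limits per cell cannot be given.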
